A study of Homo sapiens with 8 samples.

Results

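The genes described here encode proteins that bind progesterone or belong to the same receptor families. They are the nuclear receptors PGR, NR3C2 and ESR1, and PGRMC2 and NENF of the membrane-associated receptor family. The others are the membrane progestin receptors PAQR5, PAQR6, PAQR7, PAQR8 and PAQR9. The set was chosen by name, with earlier results of these data known, and all 10 genes were measured, among 18417 genes in all. Each gene was read from the probe set that pairs with its symbol alone, and from the one with the highest mean where there were several. The cells were U373, an established human astrocytoma line, kept in medium with hormone-free serum before treatment. For 12 h they received progesterone at 10 nM together with RU-486 at 1 µM (called the combination), RU-486 at 1 µM, progesterone at 10 nM, or vehicle. RU-486, or mifepristone, is a steroid antagonist of the progesterone and glucocorticoid receptors. The 8 arrays were split evenly, 2 for each of the 4 treatments, and the labels call the pairs biological replicates without saying that they came from separate cultures.

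As background, progesterone acts through 3 kinds of protein. The nuclear receptor PGR is held by chaperones until the hormone binds and then acts on DNA as a transcription factor. The PAQR proteins cross the membrane and signal rapidly through G proteins and kinases. PGRMC2 and NENF belong to a family with a cytochrome b5-like fold that binds heme. NR3C2, the mineralocorticoid receptor, also binds progesterone, and ESR1, the estrogen receptor alpha, induces PGR in breast and uterus. Progesterone and its receptors are studied in astrocytomas as regulators of growth.

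In these cells the message of PGR was not above the signal of genes taken as silent, while those of NENF, PGRMC2, PAQR8 and PAQR6 were above every olfactory receptor gene. PAQR6 fell short of the limit when taste 2 receptor and keratin-associated protein genes, with a 95th percentile of 8.39, served as the background. No treatment changed any of the 10 genes by a test that passed the threshold. The arrays carry RMA values on the log2 scale, where a dim probe set has no true zero and 2 probe sets cannot be compared as levels. Levels were therefore set against 341 olfactory receptor genes, most of which are silent outside the olfactory epithelium. Their gene means had a median of 4.64 and a 95th percentile of 6.22 on the log2 scale. Of the 10 genes 5 lay above that percentile, as did 72.4% of all 18417 genes. Each value came from RNA of a whole culture, in which fewer expressing cells and less RNA per cell cannot be told apart.

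Start-site windows are shown for PGR and NR3C2, which were dim, and for PGRMC2, which was bright, so that the sequence at the gene's start can be set beside the level. They come from RefSeq on GRCh38.p14, each running from 250 bases before the outermost annotated start to 50 after it, on the minus strand and 5′ to 3′, with CG dinucleotides in capitals. The PGR window is chr11:101129764-101130063, that of NR3C2 is chr4:148445273-148445572 and that of PGRMC2 is chr4:128287764-128288063.
PGR: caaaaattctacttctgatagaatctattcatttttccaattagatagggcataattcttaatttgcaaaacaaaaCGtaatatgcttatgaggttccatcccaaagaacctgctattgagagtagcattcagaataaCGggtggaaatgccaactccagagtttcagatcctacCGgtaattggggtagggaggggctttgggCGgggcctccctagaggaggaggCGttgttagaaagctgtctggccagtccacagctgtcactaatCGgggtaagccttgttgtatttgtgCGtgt
NR3C2: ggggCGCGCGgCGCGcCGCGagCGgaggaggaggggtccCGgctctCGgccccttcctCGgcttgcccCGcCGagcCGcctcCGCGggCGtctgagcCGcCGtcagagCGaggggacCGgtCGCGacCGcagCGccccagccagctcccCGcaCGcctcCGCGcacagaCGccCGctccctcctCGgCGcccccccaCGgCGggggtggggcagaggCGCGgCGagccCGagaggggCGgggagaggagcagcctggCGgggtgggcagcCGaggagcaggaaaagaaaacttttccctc
PGRMC2: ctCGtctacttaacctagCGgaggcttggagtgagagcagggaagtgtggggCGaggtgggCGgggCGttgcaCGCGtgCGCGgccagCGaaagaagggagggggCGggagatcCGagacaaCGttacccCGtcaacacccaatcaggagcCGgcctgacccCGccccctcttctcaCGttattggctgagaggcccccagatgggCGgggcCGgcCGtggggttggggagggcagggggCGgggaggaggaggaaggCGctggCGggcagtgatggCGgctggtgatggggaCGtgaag
The PGR window held 7 CG dinucleotides, the NR3C2 window 42 and the PGRMC2 window 25, against a median of 14 over 35116 windows. NR3C2 was thus dim with a CG-dense start and PGR dim with a sparse one. Windows were found for 6 of the 10 genes, and those of PAQR6, PAQR9 and ESR1 held 10, 31 and 4 CG dinucleotides. Each window covers the outermost annotated start alone, which need not be the start mainly used, and other starts were not examined. The half-site to which PGR, NR3C2 and the glucocorticoid receptor bind, searched as AGAACA on both strands, occurred once in the PAQR6 window and once in that of ESR1. It was not found in the windows of PGR, NR3C2, PGRMC2 or PAQR9, and 14.8% of all windows held it. PAQR5, PAQR7, PAQR8 and NENF had no window in the table used.

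**Figure D1:**
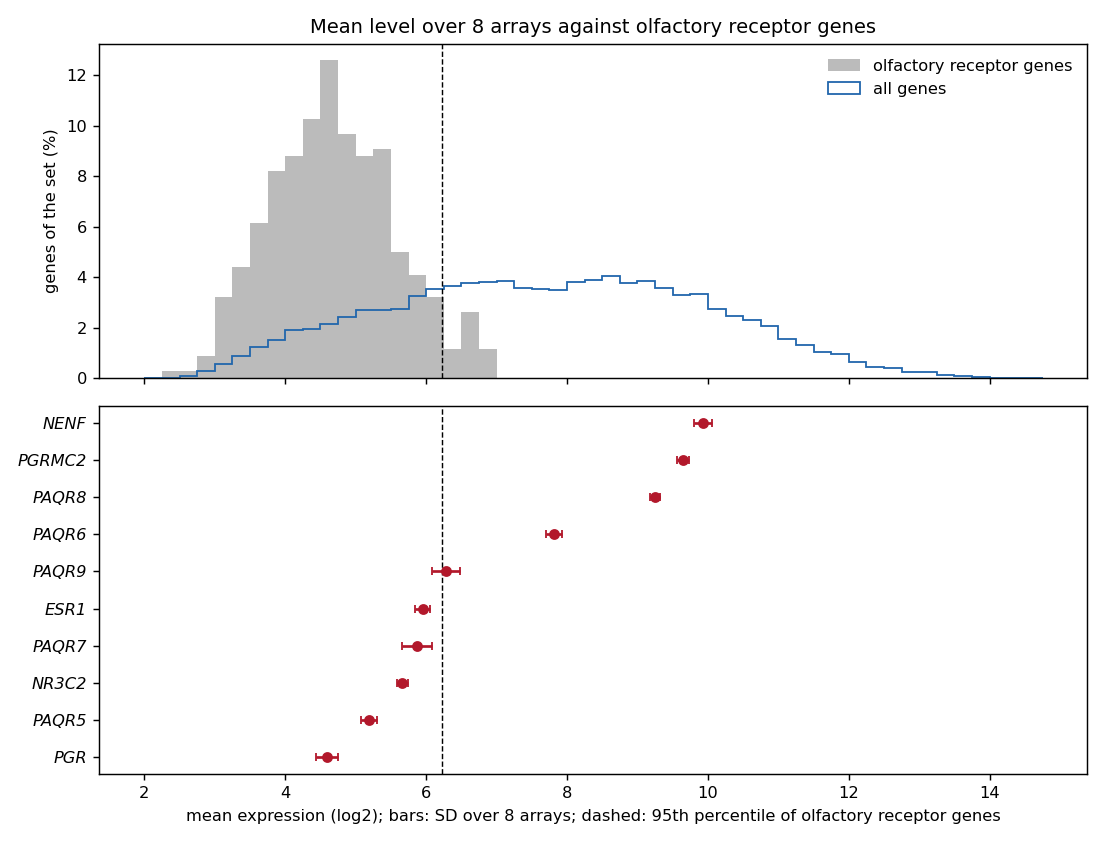
The upper panel plots the share of genes (in percent) by mean expression over 8 arrays (log2) for the 341 olfactory receptor genes and for all 18417 genes. The lower panel plots the mean and SD over 8 arrays of each receptor gene on the same axis. NENF, PGRMC2, PAQR8 and PAQR6 lie to the right of every olfactory receptor gene, PAQR9 lies at the dashed 95th percentile of 6.22, and PGR lies near their median of 4.64.

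The 3 nuclear receptors lay below the background limit. The probe set of PGR, 7951165, had log2 values of 4.57 and 4.49 in the combination, 4.49 and 4.75 in RU-486, 4.91 and 4.55 in progesterone, and 4.59 and 4.44 in vehicle. The highest array was progesterone replicate 1, and every group overlapped with vehicle. On single arrays 42.8% to 54.3% of the olfactory receptor genes lay below PGR, and 9.3% of all genes had a lower mean. The gene lies on chromosome 11 (GRCh38.p14, 101029624 to 101129813). One probe set covers its transcripts, so receptor isoforms A and B were not told apart.

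NR3C2 had log2 values of 5.75 and 5.75 in the combination, 5.64 and 5.54 in RU-486, 5.66 and 5.55 in progesterone, and 5.73 and 5.70 in vehicle. Both arrays of each single steroid thus lay below both vehicle arrays and both arrays of the combination. Its mean of 5.66 ± 0.08 (SD, n = 8 arrays) lay above 86.5% of olfactory receptor genes and below their 95th percentile on all 8 arrays. The interaction, the RU-486 difference with progesterone minus that without it, was 0.27 ± 0.12 log2 units (SE), with an unadjusted limma p of 0.0496 and an adjusted p of 0.828. Of the 10 genes NR3C2 was the 1 with an unadjusted p under 0.05 for the interaction, which 5.28% of all genes had.

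ESR1 had log2 values of 6.08 and 5.98 in the combination, 5.90 and 6.12 in RU-486, 5.82 and 5.88 in progesterone, and 5.97 and 5.88 in vehicle. Both arrays of the combination lay above both vehicle arrays by a narrow margin, and the RU-486 arrays were on either side of the higher vehicle array. The mean of 5.95 ± 0.10 lay above 91.2% of olfactory receptor genes and below their 95th percentile on every array. With RU-486 present, over 4 arrays against the 4 without it, ESR1 was at 0.14 ± 0.07 log2 units (limma adjusted p = 0.499), the smallest adjusted p of the 10 genes in that comparison. It was at 0.05 with its other probe set (limma adjusted p = 0.894) and at 0.09 with the mean of both (0.635). NR3C1, the glucocorticoid receptor and the other target of RU-486, is not of this set but was bright, at 9.96 ± 0.21, above all 341 olfactory receptor genes. PGRMC1 was not analysed here.

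NENF and PGRMC2 were both above every olfactory receptor gene. NENF, or neudesin, shares the family's fold but is a secreted protein with growth-promoting activity on neurons. It had log2 values of 9.95 and 9.97 in the combination, 9.97 and 9.93 in RU-486, 9.97 and 9.67 in progesterone, and 10.11 and 9.84 in vehicle. Vehicle replicate 1 was the highest array and progesterone replicate 2 the lowest, and the combination and RU-486 arrays lay between the 2 vehicle arrays. PGRMC2, which takes part in heme trafficking, had log2 values of 9.68 and 9.69 in the combination, 9.67 and 9.74 in RU-486, 9.50 and 9.74 in progesterone, and 9.56 and 9.65 in vehicle. Both arrays with RU-486 alone and both of the combination lay above both vehicle arrays, while the progesterone arrays held the lowest value and the second highest of the 8. The mean of NENF lay above 82.2% of all genes and that of PGRMC2 above 78.7%.

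Of the 5 membrane progestin receptors, PAQR8, PAQR6 and PAQR9 had means above the background limit, and PAQR7 and PAQR5 did not. PAQR8 (mPR beta) had log2 values of 9.14 and 9.32 in the combination, 9.26 and 9.23 in RU-486, 9.16 and 9.35 in progesterone, and 9.30 and 9.24 in vehicle. All 3 treated groups overlapped with vehicle, and the 4 group means lay between 9.23 and 9.27. PAQR6 (mPR delta), the form described as prominent in brain, had log2 values of 7.90 and 7.80 in the combination, 7.80 and 7.80 in RU-486, 8.03 and 7.78 in progesterone, and 7.79 and 7.64 in vehicle. Vehicle replicate 2 was the lowest array, and the combination and RU-486 arrays lay above both vehicle arrays. PAQR6 was above all 341 olfactory receptor genes on each array and above 51.2% of all genes.

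PAQR9 (mPR epsilon) lay at the edge of the background. Its log2 values were 6.37 and 6.22 in the combination, 6.44 and 6.31 in RU-486, 6.63 and 6.04 in progesterone, and 6.20 and 6.03 in vehicle. The gap of 0.59 between the progesterone replicates was the widest of the 10 genes in any group. The mean of 6.28 ± 0.20 was 0.06 above the 95th percentile of olfactory receptor genes, and 5 of 8 arrays lay above that percentile when it was taken on each array. Just below the limit came ESR1, 0.27 under it.

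PAQR7 (mPR alpha) had log2 values of 6.13 and 5.93 in the combination, 5.61 and 6.02 in RU-486, 5.96 and 5.56 in progesterone, and 6.03 and 5.72 in vehicle, with every treated group overlapping vehicle. PAQR5 (mPR gamma) had log2 values of 5.26 and 5.27 in the combination, 5.33 and 5.10 in RU-486, 5.24 and 5.22 in progesterone, and 5.12 and 4.98 in vehicle. Vehicle held the lowest PAQR5 array, and both arrays of the combination and of progesterone lay above both vehicle arrays. Neither gene passed the 95th percentile on any array. Of the olfactory receptor genes 90.6% had a lower mean than PAQR7 and 72.4% a lower mean than PAQR5.

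**Figure D2:**
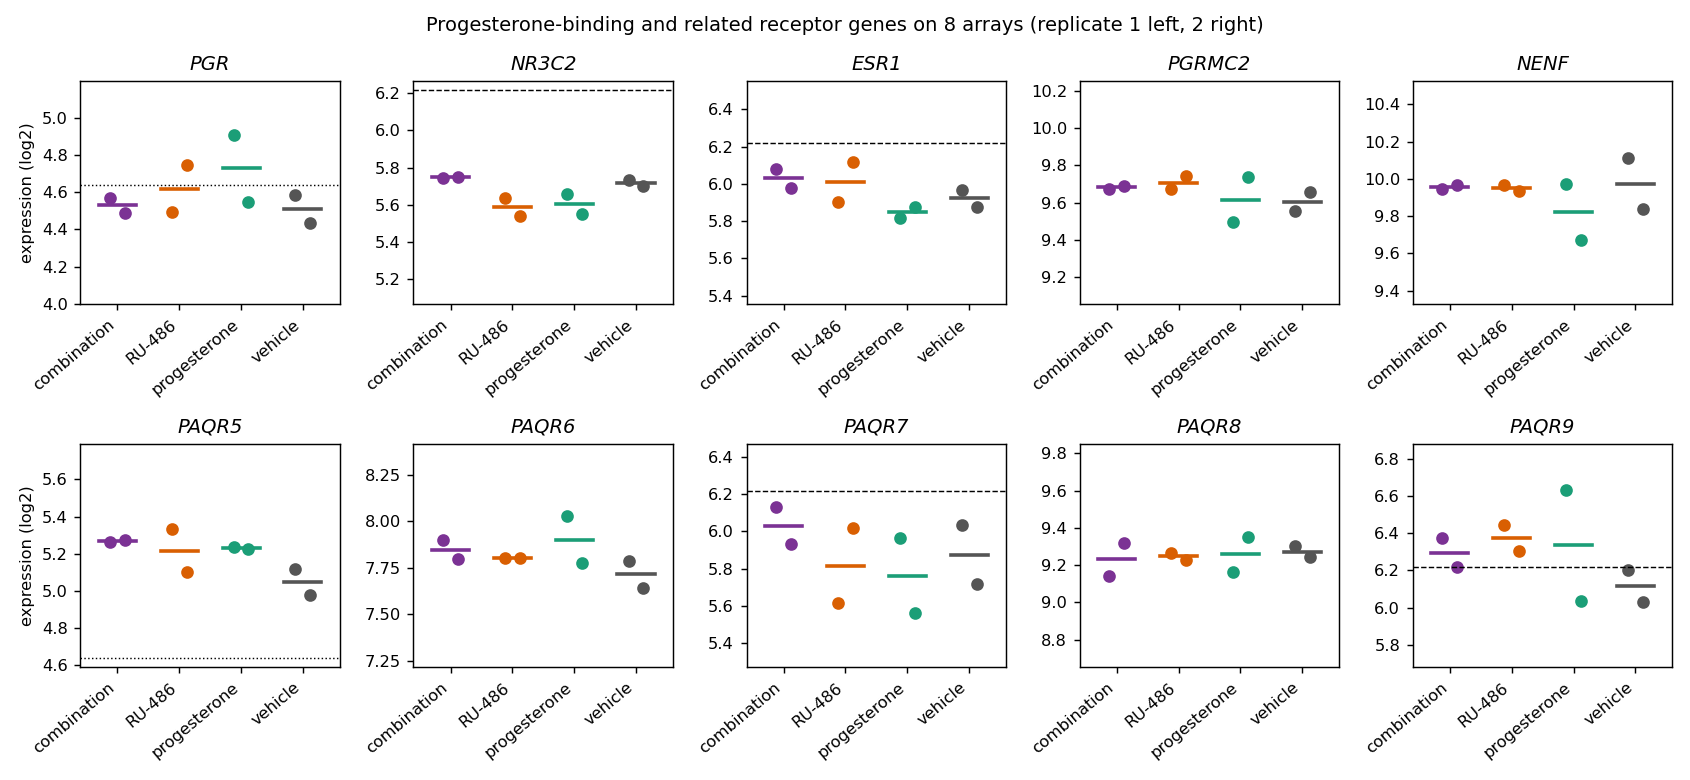
Each panel plots the log2 expression of 1 gene on the 8 arrays by treatment, with points for replicates 1 (left) and 2 (right), lines for group means, and a vertical span of equal length in every panel. A dashed line marks the 95th percentile of olfactory receptor genes (6.22) and a dotted line their median (4.64) where they fall within a panel. Points of a pair are farthest apart for PAQR9 in progesterone, and the 4 means of PAQR8 lie within 9.23 to 9.27.

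Whether the steroids changed the receptors' own messages was asked with a limma fit over all 18417 genes, in which the 4 groups share 1 estimate of spread. The F test over the 4 groups called 0 of the 10 genes and 0% of all genes at an adjusted p under 0.05. At an unadjusted p under 0.05 it held 0 of the 10, beside 7.63% of all genes. PAQR5 and NR3C2 shared the smallest adjusted p of the set, at 0.659. Between the highest and lowest group mean lay 0.22 log2 units for PAQR5 and 0.16 for NR3C2. That range was 0.27 log2 units for PAQR7, 0.26 for PAQR9 and 0.04 for PAQR8. Leaving out single arrays moved it to between 0.17 and 0.47 for PAQR7 (highest without progesterone replicate 1, lowest without combination replicate 1), between 0.17 and 0.51 for PAQR9 (highest without progesterone replicate 2, lowest without vehicle replicate 2) and between 0.03 and 0.13 for PAQR8. In no gene did neighbours in the order of the group means differ by more than 2 SE of a difference.

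With RU-486 present, over 4 arrays against the 4 without it, 0 of the 10 genes passed, beside 0.0326% of all genes, and 0 had an unadjusted limma p under 0.05, beside 11%. Their median log2 difference was 0.07 and 8 of 10 were above 0, while all genes had a median of 0.03 with 62.5% above 0. PGRMC2 stood at 0.08 ± 0.07, PAQR9 at 0.11 ± 0.13 and PAQR7 at 0.10 ± 0.14 (SE). With single arrays left out, these ran from 0.02 to 0.14 for PGRMC2, -0.04 to 0.26 for PAQR9 and 0.0045 to 0.21 for PAQR7. PGR stood at -0.05 ± 0.10 and PAQR8 at -0.03 ± 0.07. Taken gene by gene, the 95% intervals reached from -0.29 to 0.43 at their farthest, the first for PGR and the second for PAQR7. No gene of the set had all 4 arrays with RU-486 above or below all 4 without it, which 4.51% of all genes had upward and 1.09% downward.

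With progesterone present, over 4 arrays against 4 without it, 0 of the 10 genes passed, beside 0% of all genes, and 0 had an unadjusted limma p under 0.05, beside 5.03%. PAQR5 and PAQR6 had the largest differences, each at 0.12 log2 units, with SE of 0.07 and 0.08. NENF had the lowest, at -0.07 ± 0.09. No gene of the set had all 4 arrays with progesterone above or below all 4 without it, which 2.02% of all genes had upward and 0.836% downward. PGR, which progesterone lowers through its own receptor in some tissues, stood at 0.06 ± 0.10, with a 95% interval from -0.18 to 0.30. The median was 0.04 for the 10 genes and 0.03 for all genes.

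For the combination against vehicle, 0 of the 10 genes passed and 0% of all genes did. The 10 genes held 0 at an unadjusted limma p under 0.05, beside 13.2% of all genes. PAQR5 came nearest, at 0.22 ± 0.10 log2 units, or 1.16-fold (95% interval -0.01 to 0.45, limma adjusted p = 0.385). In this comparison 6 genes (PGRMC2, PAQR5, PAQR6, PAQR9, ESR1 and NR3C2) had both combination arrays above both vehicle arrays, and 0 had both below. Among all genes 42.7% had both above and 18.8% both below. The median difference was 0.09 for the 10 genes and 0.07 for all genes.

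RU-486 alone against vehicle left 3 genes (PGRMC2, PAQR6 and PAQR9) with both treated arrays above both vehicle arrays and 1, NR3C2, with both below, where all genes had 24.0% above and 15.7% below. Progesterone alone against vehicle left 1 above (PAQR5) and 1 below (NR3C2), where all genes had 16.3% and 15.8%. Both comparisons use the same vehicle arrays. The largest single difference of the set against vehicle was that of PAQR9 after RU-486, 0.26 ± 0.19 log2 units (limma adjusted p = 0.9996). Its SE draws on the spread of all 4 groups, and the SD of PAQR9 was 0.42 in progesterone, 0.10 in RU-486 and 0.12 in vehicle. After progesterone PGR and PAQR9 each stood at 0.22, with SE of 0.14 and 0.19, and NENF at -0.15 ± 0.13. In both comparisons 0 of the 10 genes passed and 0% of all genes did, and 0 of the 10 had an unadjusted limma p under 0.05, beside 3.1% of all genes for RU-486 and 6.13% for progesterone.

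The combination was also set against each steroid alone. Against progesterone 0 of the 10 genes passed and 0% of all genes did, 0 had an unadjusted limma p under 0.05 beside 14.6% of all genes, and PAQR7 differed most, by 0.27 ± 0.19. Both combination arrays lay above both progesterone arrays for 3 genes, PAQR5, ESR1 and NR3C2, beside 28.1% of all genes. Against RU-486 0 of the 10 passed and 0% of all genes did, and 0 had an unadjusted limma p under 0.05 beside 4.75%. NR3C2 was the 1 gene with both combination arrays above both RU-486 arrays, beside 33.3% of all genes, at 0.16 ± 0.08 (limma adjusted p = 0.769). The interaction called 0 of the 10 and 0% of all genes.

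**Figure D3:**
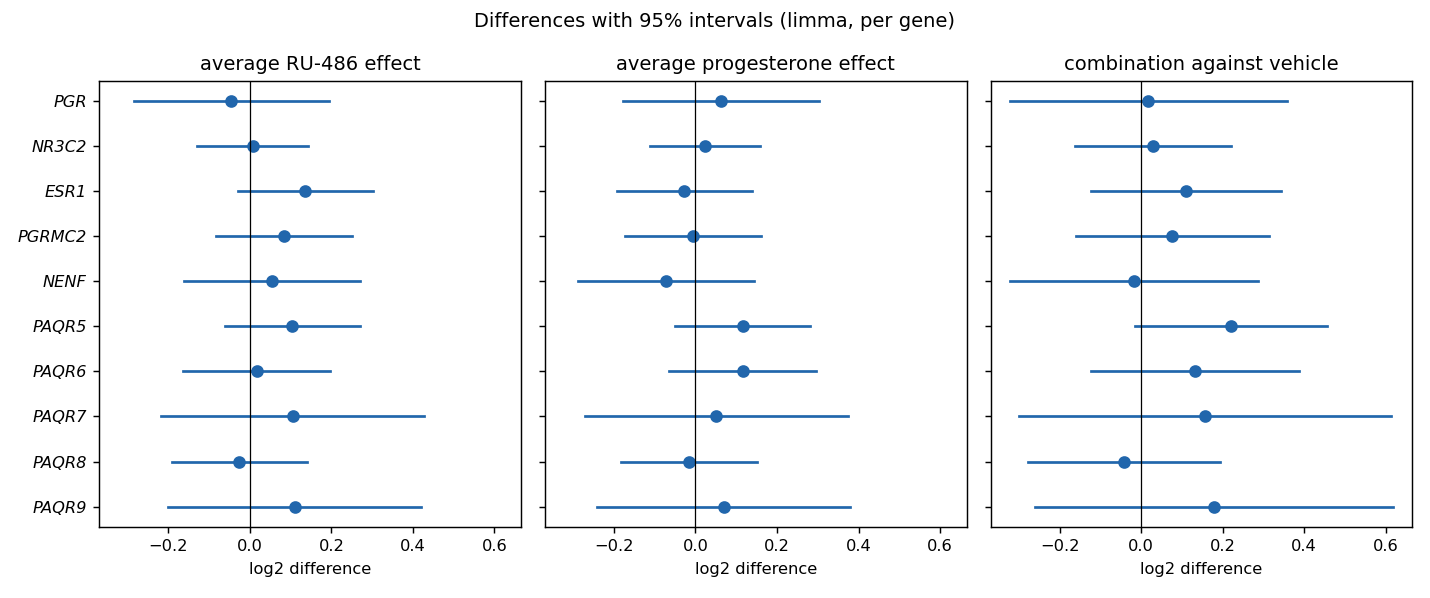
Points are log2 differences of the 10 genes and lines their 95% intervals from the limma fit, in 3 panels for the average RU-486 effect, the average progesterone effect and the combination against vehicle. Every interval includes 0, and PAQR5 in the combination comes nearest to leaving it, with an interval from -0.01 to 0.45.

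The replicate pairs set the error of these values. Taken over all genes, replicate 1 minus replicate 2 had an SD of 0.17 log2 units in the combination, 0.16 in RU-486, 0.35 in progesterone and 0.18 in vehicle. Since the 4 groups share 1 spread, the wider progesterone pair also enters the error of comparisons that leave that group out. For the 10 receptor genes the median gap within a pair was 0.09 in the combination, 0.12 in RU-486, 0.25 in progesterone and 0.14 in vehicle. In vehicle, replicate 1 was the higher array for 9 of the 10 genes, against 53.6% of all genes, and in progesterone for 7 of the 10, against 63.0%. Compared with genes of nearly the same mean, NR3C2 and PAQR8 varied little over the 8 arrays, with 7.5% and 12.3% of such genes having a smaller SD. PAQR7 and PAQR9 varied more, with 83.0% and 82.1% having a smaller SD.

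Patterns over the 8 arrays are given as descriptions, since all points come from the same arrays and the 2 progesterone arrays stand far apart. PAQR6 and PAQR9 moved together with a Pearson r of 0.866, PGR with PAQR6 at 0.792, and PAQR8 ran against PAQR9 at -0.659. Among 13342 other genes above the background limit, OGT and NT5C3A were most like PGRMC2, with r of 0.947 and 0.942. CLASP1 and the microRNA gene MIR423 were most like PAQR8 (0.972 and 0.966), and RPL28 and PSMB4 most like NENF (0.962 and 0.958). MUC5B and DENND6B were most like PAQR6 (0.989 and 0.984), and LOC100127955 and GPRIN1 most like PAQR9 (0.983 and 0.979). An r over 0.9 was reached by 346 genes for PAQR6 and 197 for PAQR9, compared with 35 for NENF, 11 for PAQR8 and 10 for PGRMC2. The named genes are the highest of 13342 over 8 arrays, and how many would reach such an r by chance was not assessed.

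The genes that work with these receptors were described through 7 lists with 94 measured genes. At an adjusted p under 0.05, 0 of them passed in the F test, the average RU-486 effect, the average progesterone effect or the combination against vehicle, by limma over all genes. At an unadjusted p under 0.05 the counts were 13 of 94 in the F test (7.63% of all genes), 18 for RU-486 (11%), 1 for progesterone (5.03%) and 18 for the combination (13.2%). Without progesterone replicate 1, the average RU-486 effect was 0.37 for SGK1, 0.37 for KLF4, 0.49 for MYC and 0.47 for VEGFA. It was -0.33 for F3 and -0.62 log2 units for PIK3R1. These 6 genes were picked from the 94 by their results in that fit, in which many genes outside the lists also passed. The first 5 are listed as targets of PGR, but whether that list differed from the others was not tested. The fit without progesterone replicate 1 rests on 1 progesterone array, and with all arrays 0 of the 94 passed. Whether these genes responded through PGR was not tested.

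Chaperones that hold steroid receptors ready for hormone were all above the background limit, 12 of 12 measured. Of all genes 72.4% were above it, a share that also stands beside the counts of the lists below. For the average RU-486 effect the chaperones had a median of 0.08 log2 units, beside 0.03 for all genes. At an unadjusted limma p under 0.05, 2 were above and 1 below, beside 11% of all genes in either direction. FKBP4, an immunophilin that PGR needs for activity in the mouse uterus, had log2 values of 11.69 and 11.51 in the combination, 11.51 and 11.44 in RU-486, 11.33 and 11.27 in progesterone, and 11.37 and 11.36 in vehicle. All 4 arrays with RU-486 lay above all 4 without it, at 0.20 ± 0.06 (limma adjusted p = 0.423), an order that 4.51% of all genes had. FKBP4 was named for its small F test p within the list, a choice that favours such an order. The p23 cochaperone PTGES3 stood at 0.15 ± 0.08 (limma adjusted p = 0.495) and BAG1, a cochaperone of HSP70, at 0.17 ± 0.06 (limma adjusted p = 0.434).

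Coactivators and corepressors of PGR, 13 of 13 above the limit, had a median of -0.02 for the average RU-486 effect, beside 0.03 for all genes. At an unadjusted limma p under 0.05, 1 was above and 3 below, beside the same 11%. TBL1XR1, a corepressor subunit, had log2 values of 10.52 and 10.70 in the combination, 11.004 and 11.22 in RU-486, 10.997 and 11.38 in progesterone, and 11.06 and 11.38 in vehicle. Both combination arrays lay below all other arrays, at -0.61 ± 0.17 against vehicle (limma adjusted p = 0.374). Among all genes 18.8% had both combination arrays below both vehicle arrays, and the share below all other arrays was not counted. The coactivator NCOA2 stood at -0.53 ± 0.18 and JDP2, which coactivates PGR, at 0.35 ± 0.10 in the same comparison, each with a limma adjusted p of 0.374.

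Targets of PGR known from breast and endometrium numbered 26 measured, 21 of them above the limit. For the average progesterone effect their median was 0.04, beside 0.03 for all genes, and 0 had an unadjusted limma p under 0.05. With RU-486 the median was 0.08, beside 0.03 for all genes, with 6 above and 1 below at that limit, beside 11% of all genes. SGK1, a steroid-induced kinase, had log2 values of 9.40 and 9.48 in the combination, 9.37 and 9.49 in RU-486, 9.02 and 8.99 in progesterone, and 9.21 and 9.05 in vehicle. Its 4 arrays with RU-486 lay above the 4 without it, an order that 4.51% of all genes had. The coagulation trigger F3, or tissue factor, had log2 values of 7.88 and 7.95 in the combination, 7.89 and 7.79 in RU-486, 8.02 and 8.17 in progesterone, and 8.20 and 8.27 in vehicle. The 4 F3 arrays with RU-486 lay below the others (-0.29 ± 0.06, limma adjusted p = 0.331), an order that 1.09% of all genes had. Both SGK1 and F3 were named for a small F test p within the list, a choice that favours such orders. VEGFA, the vascular growth factor, averaged 9.41 ± 0.05 in the combination, 9.29 ± 0.16 in RU-486, 8.89 ± 0.05 in progesterone and 8.90 ± 0.03 in vehicle (SD, n = 2 each). Several of these genes also respond to other receptors, among them the glucocorticoid receptor.

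In the rest of the PAQR family, 5 of 6 genes were above the limit. MMD was at 0.28 ± 0.06 for the average RU-486 effect (limma adjusted p = 0.341), with log2 values of 9.49 and 9.64 in the combination, 9.53 and 9.56 in RU-486, 9.17 and 9.29 in progesterone, and 9.28 and 9.37 in vehicle. Its 4 arrays with RU-486 lay above the other 4, as they did for 4.51% of all genes, and MMD too was named for a small F test p. PAQR3, a Golgi membrane protein, was at -0.42 ± 0.14 in the combination against vehicle (limma adjusted p = 0.374). The adiponectin receptor ADIPOR1 was at 0.12 ± 0.07 in that comparison (limma adjusted p = 0.455).

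Partners of the membrane-associated receptors and other progesterone-binding proteins were above the limit in 12 of 12 cases. Their median was 0.08 for RU-486 and 0.004 for progesterone, beside 0.03 for all genes in each. CYP51A1, a sterol demethylase, was at -0.17 ± 0.06 with progesterone and at 0.12 ± 0.06 with RU-486 (limma adjusted p = 0.722 and 0.500), and FECH, the last enzyme of heme synthesis, at 0.13 ± 0.06 with RU-486 (0.458). INSIG1, which retains SCAP in the endoplasmic reticulum, was at -0.13 ± 0.06 with RU-486 (limma adjusted p = 0.462). G proteins and kinases downstream of the membrane receptors were above the limit in 17 of 18 cases. Their median was 0.12 for the combination against vehicle, beside 0.07 for all genes. PIK3R1, the regulatory subunit of PI3-kinase, was at -0.65 ± 0.23 there, and the adenylate cyclases ADCY3 and ADCY9 were at 0.25 ± 0.12 and 0.16 ± 0.07 (limma adjusted p = 0.374, 0.388 and 0.386).

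Other steroid-related nuclear receptors were above the limit in 3 of 7 measured cases. NR3C1 had log2 values of 9.61 and 9.76 in the combination, 9.92 and 10.07 in RU-486, 9.89 and 10.20 in progesterone, and 10.07 and 10.17 in vehicle. Both combination arrays lay below all other arrays, an order whose share among all genes was not counted, and none of the NR3C1 differences passed. ESRRA, an orphan receptor that drives mitochondrial genes, was at 0.19 ± 0.10 and ESRRG at -0.21 ± 0.13 in the combination against vehicle (limma adjusted p = 0.425 and 0.459).

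**Figure D4:**
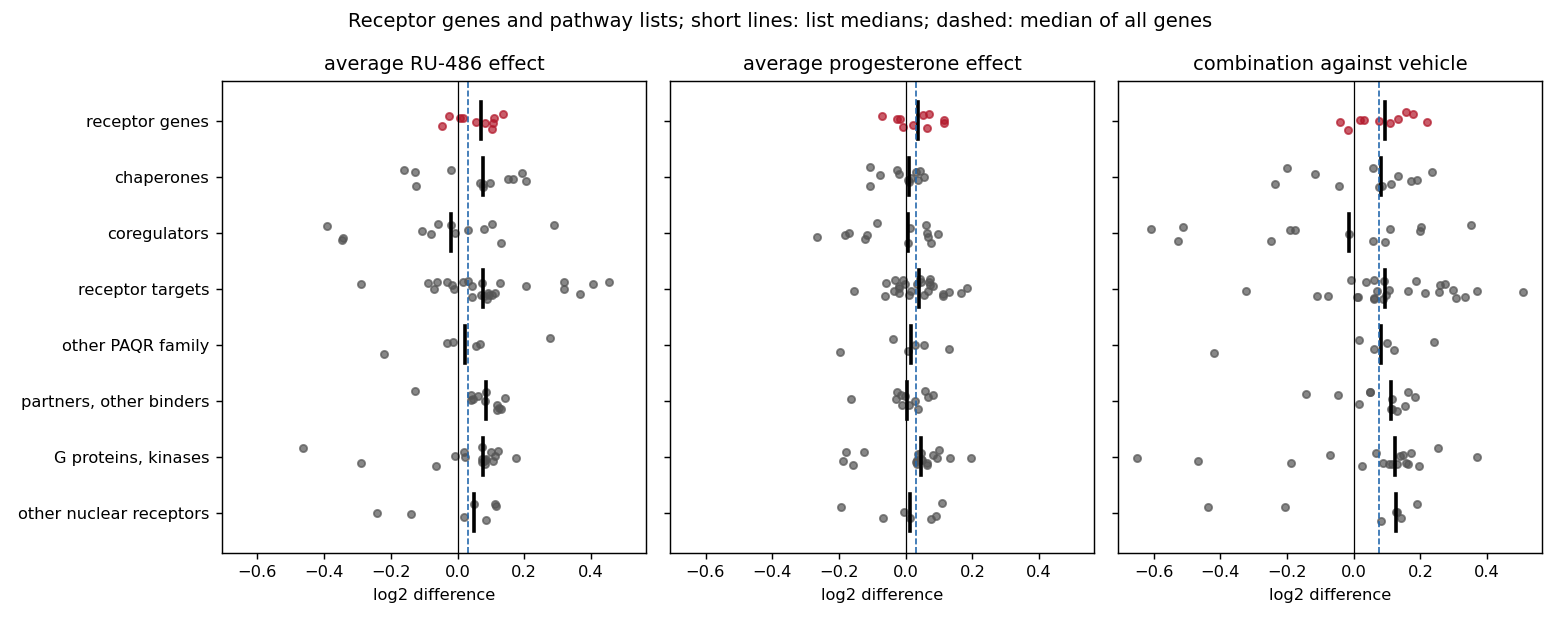
Points are log2 differences of single genes, in rows for the 10 receptor genes and the 7 pathway lists and in panels for the average RU-486 effect, the average progesterone effect and the combination against vehicle. For RU-486 the receptor genes lie within -0.05 to 0.14, and VEGFA has the highest value of the receptor targets, 0.45.

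The labelled cell type was checked with its markers. Of 7 astrocyte and glioma markers 6 were above the background limit, VIM at 13.4, S100B at 9.59 and GFAP at 7.54 among them. Above it were also 2 of 4 neuron markers and 1 each of the oligodendrocyte, microglia and leukocyte, endothelium and epithelium lists, with list medians of 5.08 to 6.10. The astrocyte and glioma list had a median of 9.24 in the combination, 9.47 in RU-486, 8.85 in progesterone and 8.94 in vehicle. Each of these is the group mean of the middle gene of the 7, which may differ between groups. No test was made on the medians, so they do not show a change of the list. Among the other lists, that of microglia and leukocytes varied most, with 5.15 in the combination, 5.09 in RU-486, 5.11 in progesterone and 4.98 in vehicle.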

How the data were processed

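Total RNA of 8 samples was hybridised to whole-transcript arrays, and groups and replicate numbers follow the sample titles. Titles and descriptions number the antagonist differently, and RU-486 follows the titles. The deposited table gives each of 33297 probe sets on the log2 scale for every array. RMA, oligo and limma are named, per the submitters' processing notes, and versions, settings and filters are not given in the sources used here. RMA is meant to equalise the arrays' distributions, which removes much of a shift shared by most genes, and differences of dim genes are compressed. The deposited values were not fully equal, with array medians from 6.93 to 7.02, so part of a shared shift can remain in the differences. For progesterone against vehicle the median difference of all genes was 0.0038, and -0.0499 with array medians equalised.

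From the deposited values, 19460 probe sets with 1 symbol in the platform annotation were reduced to 18417 genes by the highest mean, and 1754 with several symbols and 12083 not listed were left out. 19429 matched a RefSeq identifier (GRCh38.p14), and 0 symbols were updated. The model, lmFit and eBayes of limma 3.58.1 under R 4.3.3, had 4 group means, no filter and 4 residual degrees of freedom. Calls needed a Benjamini-Hochberg adjusted p under 0.05 over all genes. The script was tested on simulated data. Intervals are at 95% per gene, unadjusted. Replicate spread, on which the p-values rest, may be technical.

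The genes and lists were chosen with earlier results of these data known. Named beside the 10 genes and NR3C1 are the 3 genes of each list with the smallest F test p, and the 2 genes most correlated with each gene above the limit. KLF4, MYC and the markers were named after their values were seen. 16 listed genes were not analysed here. Sequences are from RefSeq, and no protein sequence was used. Alternatives were other probe sets, scalings, filters, spread models, background genes, the replicate number as a block, and leaving out each array.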

Additional observations from a re-analysis of the deposited data

How the results depend on the processing

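Under all alternatives of the fit (other probe sets, quantile normalization, equal medians, a filter on dim genes, an intensity trend, array weights, the replicate block and each array left out), 0 of the receptor genes tested passed in the F test and the 8 comparisons. All 10 were tested, except that the filter on dim genes left out PGR. With the replicate number as a block the count was 0 of 10 in each, and 0 of the 94 pathway genes passed in the 4 comparisons in which they were counted. Replicate deviations correlated between groups at 0.197 to 0.511, and the labels do not say what a shared number means. The count of pathway genes for the average RU-486 effect ran from 0 to 6 as single arrays were left out, 6 without progesterone replicate 1. The number of receptor genes above the background was 5, and 4 with the 99th percentile, 9 with the median of olfactory receptor genes as the limit and 3 with taste 2 receptor and keratin-associated protein genes as the background, whose 95th percentile of 8.39 lay above PAQR6. It was 5 with each array left out.

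Differences near 0 changed sign without being called. With quantile normalization NR3C2 was at -0.0056 for RU-486 and -0.0056 for the combination against vehicle, PGRMC2 at 0.0124 and PAQR8 at 0.01 for progesterone, and PGR at -0.0045 for the combination. With equal medians NR3C2 was at -0.003 for progesterone and PGR at -0.0105 for the combination. For progesterone ESR1 was at 0.047 with its dimmer probe set and 0.0099 with the mean of both. With single arrays left out, the RU-486 difference ran from -0.1359 to 0.0453 for PGR, -0.046 to 0.0798 for PAQR6, -0.0722 to 0.0199 for PAQR8, -0.0386 to 0.2577 for PAQR9, -0.0204 to 0.1302 for NENF and -0.0208 to 0.0348 for NR3C2. The progesterone difference ran from -0.0276 to 0.1537 for PGR, -0.0666 to 0.0527 for PGRMC2, -0.0492 to 0.1516 for PAQR7, -0.0623 to 0.0298 for PAQR8, -0.0791 to 0.2172 for PAQR9, -0.1476 to 0.0031 for NENF, -0.0807 to 0.0262 for ESR1 and -0.005 to 0.0505 for NR3C2. The combination difference ran from -0.0573 to 0.0928 for PGR, -0.0031 to 0.3154 for PAQR7, -0.1305 to 0.0458 for PAQR8 and -0.1538 to 0.1191 for NENF. The cause was not tested. Depth has no counterpart on these arrays, and the number of arrays limits the precision.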

Other observations

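ESR1 was the 1 gene of the set with a second probe set, 8122840, which pairs with 1 accession against 20 for the one used. Its mean was 5.63 ± 0.15 log2 units (SD, n = 8 arrays), also below the 95th percentile of olfactory receptor genes.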
